A study of Mus musculus with 4 samples.

Results

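Aquaporins are channel proteins of the cell membrane, and 8 of their genes, *Aqp1*, *Aqp3*, *Aqp4*, *Aqp5*, *Aqp7*, *Aqp8*, *Aqp9* and *Aqp11*, were followed in the mouse colon on 4 dual-color Agilent arrays. They were found by the gene name that the array files give to a probe, which yielded 13 of 41174 probes and 8 of 27343 gene names. The genes were chosen by measured values, because *Aqp4* was known from these same arrays to change in the direction opposite to other crypt genes. The ratios of those genes that could be measured are therefore given as a description, with no test. In the first experiment, RNA from the colon (distal colon by the labels) of 1 *Rspo3* KO mouse (Myh11CreErt2/Rspo3 fl/fl) was hybridised against that of 1 control littermate (Myh11CreErt2/Rspo3 +/+) per array, on 2 arrays with reversed dyes, which gives n = 2 pairs of mice. In the second, RNA of Axin2+ cells (tdTomato positive) was hybridised against RNA of Axin2- cells (tdTomato negative), both sorted from the colon epithelium of Axin2CreErt2/Rosa26-tdTomato mice and pooled from 3 mice, and the 2 arrays are a dye swap of the same RNA and count as 1 replicate.

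All mice were male, had a C57BL/6 background and an age of 6 to 8 weeks, and received tamoxifen (4 mg per 25 g body weight), controls included. The *Rspo3* KO and control mice were taken 2 weeks and the Axin2 reporter mice 24 h after tamoxifen. Cre in the KO and control mice is driven from *Myh11*, a gene of smooth muscle cells and myofibroblasts, so that *Rspo3*, which encodes a secreted amplifier of Wnt signaling, is deleted only in such cells. Nothing in the labels names a litter for each pair, and the spread between 2 pairs of mice is the only error available in the first experiment. The second experiment has a difference between dye swaps but no replicate check.

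Aquaporins pass water along osmotic gradients, and the aquaglyceroporins among them also pass glycerol and other small solutes. In the colon, absorptive cells of the surface epithelium take up salt, and water follows, whereas cells of the crypt can secrete chloride and fluid. *Aqp8* is known as an aquaporin of colonic surface cells, *Aqp1* as a channel of capillary endothelium and of several epithelia, and *Aqp4* as a basolateral water channel of epithelia and of glia.

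The measured sequences were 60-base oligonucleotides, and the first 30 bases of those for the 3 genes that carry the comparison of sorted cells and have a single probe are shown here in lower case, 5′ to 3′ (positions in mm9, as the array files list them). The *Aqp1* probe maps to chromosome 6 from 55298480 to 55298539 (plus strand), the *Aqp8* probe on chromosome 7 from 130611436 to 130611495 (plus strand) and the *Aqp11* probe on chromosome 7 from 104874989 to 104875048 (minus strand). No annotation of mm9 was used here, so that exon and UTR were not assigned.
Aqp1 probe: ctgtgtatgtttctttgcaattgaatttca
Aqp8 probe: agaaggtctttcaggagcccaaagatcttg
Aqp11 probe: cttcagctttctctgtggaaggtgtcttaa

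*Aqp1* and *Aqp8* stood at opposite ends of the aquaporins in the sorted cells, and the 250 bases before their start sites in RefSeq (build GRCm38.p6) are shown for comparison, at chr6:55336049-55336298 and chr7:123462044-123462293, both on the plus strand. Capitals were reserved for the Wnt effector motif of Tcf/Lef factors (CTTTGA or CTTTGT, either strand), which occurs in neither stretch. Nor do they hold a TATA box (TATAAA) or a Cdx core (TTTATG), searched on both strands. Among all 32851 promoter entries, the 250 bases upstream hold the Tcf/Lef motif in 27.6%, the TATA box in 12.4% and the Cdx core in 10.8%. Of the 9 entries of these aquaporins, which cover all but *Aqp4*, 1 of *Aqp9* has the Tcf/Lef motif and the Cdx core and that of *Aqp3* has the TATA box. The *Aqp1* stretch has a GC content of 62% and that of *Aqp8* 52.4%, against a median of 52.4% over all entries. These are matches of letters only and the arrays hold no measurement on them.
Aqp1 promoter: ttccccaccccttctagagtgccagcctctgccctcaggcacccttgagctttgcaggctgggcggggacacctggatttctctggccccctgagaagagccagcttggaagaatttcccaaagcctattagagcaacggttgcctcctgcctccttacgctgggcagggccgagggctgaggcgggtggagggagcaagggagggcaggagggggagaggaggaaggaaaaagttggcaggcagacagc
Aqp8 promoter: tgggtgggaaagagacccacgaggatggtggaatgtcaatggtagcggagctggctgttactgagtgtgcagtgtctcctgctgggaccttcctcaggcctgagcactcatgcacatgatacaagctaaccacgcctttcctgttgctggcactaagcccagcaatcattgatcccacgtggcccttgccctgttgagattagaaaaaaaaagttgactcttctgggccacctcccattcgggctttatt

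Each channel had 53.1% to 60.3% of its 43379 gene spots well above background, and the small number of arrays sets the precision. Neither probe for *Rspo3* itself was well above background on array 1, and the one that was so on array 2 gave a KO over control value of 0.17 (log2), so that these arrays did not show its loss and the position of the probes relative to the deleted part was not determined. Across all genes the 2 KO arrays were hardly related (Pearson's r 0.033 and Spearman's rho -0.12 over 15373 genes, which are not independent replicates), and 44.2% of the genes had the same direction on both. The dye swap of the sorted cells gave an r of 0.92, a rho of 0.87 and 82.7% over 15880 genes. In the sorted cells all 7 epithelial markers, among them *Epcam* and *Cdh1*, were well above background on both arrays of each pool, and *Axin2* had ratios of 1.35 and 1.30. In whole colon 5 of the 7 were measured. Limma's adjusted p called 1 of them higher in the KO, where 0.13% of 15373 genes were called higher. It was the intestinal transcription factor gene *Cdx2* at 2.33 and 1.91. Bulk RNA was measured throughout, and fewer cells of a type and less RNA per cell cannot be told apart.

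In the whole colon, 6 of the 8 aquaporins had a probe well above background in every channel, and in the sorted epithelial cells 4 of the 8 did (*Aqp1*, *Aqp4*, *Aqp8* and *Aqp11*). *Aqp3* and *Aqp5* were well above background in all 4 channels of the colon arrays and in none of the sorted cells. *Aqp7* and *Aqp9*, the aquaglyceroporins best known from fat and from liver and leukocytes, were not well above background in any of the 8 channels, with both probes of *Aqp7* and all 3 of *Aqp9*. After outlier spots were left out, 5 genes had a ratio of KO over control and 4 a ratio of Axin2+ over Axin2- cells.

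**Figure D1:**
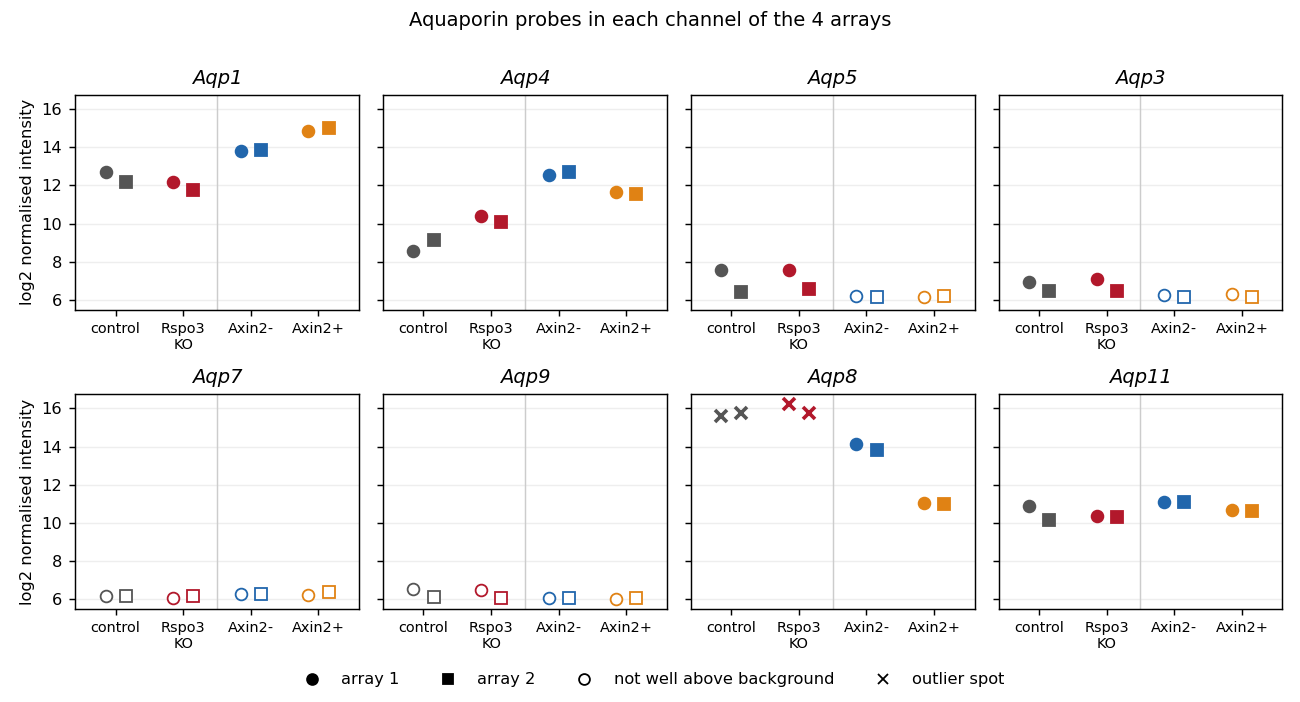
Normalised intensity (log2) of each aquaporin's probe, or its brightest one, in each of the 8 channels, with circles for array 1 and squares for array 2, open symbols for spots not well above background and crosses for spots marked as outliers by the extraction software. *Aqp4* lay between 8.58 and 12.7, *Aqp1* between 11.8 and 15.0, and *Aqp7* and *Aqp9* stayed at background in every channel.

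*Aqp4* was higher in *Rspo3* KO than in control colon in both pairs and lower in Axin2+ than in Axin2- cells on both arrays. Its 3 probes lie on the minus strand of chromosome 18 of mm9, between 15551497 and 15552192, and all were well above background in every channel. The log2 level of its brightest probe was 10.4 and 10.1 in the KO mice and 8.58 and 9.12 in the control mice, in the order of the pairs. The KO and control levels did not overlap, and the controls were the lowest of all channels. KO over control, this gave log2 ratios of 1.80 in the first pair and 0.99 in the second (mean 1.40, SD 0.577, n = 2 pairs), a mean of 2.63-fold.

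The other two *Aqp4* probes went the same way, at 1.18 and 1.31 for the probe starting at 15552133 and at 0.88 and 1.25 for the probe starting at 15551966. Their means of 1.24 and 1.06 show that the pair with the larger ratio depended on the probe, since the first pair had the larger ratio with the brightest probe only. Among all genes measured, *Aqp4* had the 37th highest mean ratio of 15373.

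Among the sorted pools, the brightest *Aqp4* probe had a log2 level of 11.7 and 11.5 in Axin2+ and of 12.6 and 12.7 in Axin2- cells. The pools did not overlap, and both lay above every channel of whole colon, a comparison of levels across 2 kinds of sample on different slides. The log2 ratio of Axin2+ over Axin2- cells was -0.89 and -1.17 (mean -1.03, 2.04-fold lower), with -0.90 and -1.03 for the second probe and -0.88 and -1.08 for the third. With median centring in place of loess, the brightest probe kept its mean direction, at 0.13 and -2.61 on the 2 arrays.

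*Aqp1*, the water channel first known from red cells and kidney, went the other way from *Aqp4* in both comparisons. Its log2 level was 14.9 and 15.0 in Axin2+ cells and 13.8 and 13.9 in Axin2- cells, which did not overlap. The log2 ratio of Axin2+ over Axin2- cells was 1.09 and 1.11 (mean 1.10, 2.15-fold higher), a difference between the dye swaps of 0.025. Of 15880 genes, 168 had a higher mean. In the colon of KO mice the log2 level was 12.2 and 11.8, against 12.7 and 12.2 in controls, so that the groups overlapped while each KO mouse was below its own control. The log2 ratio of KO over control was -0.50 and -0.39 (mean -0.45, SD 0.074, n = 2 pairs), which is 1.36-fold lower in the KO and short of 1.5-fold. With median centring in place of loess, the means kept their direction but the single arrays stood on opposite sides of 0, at 2.08 and -0.63 in the sorted cells and at 0.32 and -1.10 in the KO.

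*Aqp1* is also a gene of blood vessels, and the 9 endothelial markers were listed for this reason. In whole colon, all 9 were well above background on both arrays in KO and control, none passed 1.5-fold alike, and none passed limma's adjusted p (none at an unadjusted p under 0.05 either). In the sorted cells, *Pecam1*, *Cdh5*, *Kdr*, *Emcn*, *Flt1* and *Cd34* were well above background in no channel. *Tek* and *Vwf* were so in all 4 channels, and *Plvap* in 3 of them. The 3 measured markers of the 9 lay between -0.37 and 0.079 (log2, Axin2+ over Axin2-). The part of endothelial cells in the *Aqp1* ratios was not tested.

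*Aqp8* had the largest difference of the family in the sorted cells. Its log2 level was 11.1 and 11.0 in Axin2+ cells and 14.1 and 13.8 in Axin2- cells, and the pools did not overlap. The log2 ratio was -3.06 and -2.83 (mean -2.94), which is 7.70-fold lower in Axin2+ cells, and only 8 of 15880 genes had a lower mean.

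In whole colon, *Aqp8* had no usable ratio. On both KO arrays the extraction software marked its single spot as an outlier, although the spot ranked 47th and 98th in brightness among 43379 gene spots. A mark in either dye was enough for a spot to be left out. Such marks were common among bright spots of these arrays, with 224 and 225 of the 400 brightest spots on KO arrays 1 and 2 and 0 of 400 on each array of the sorted cells. With outlier spots kept, an alternative chosen once their number was known, the log2 level of *Aqp8* was 16.2 and 15.7 in the KO and 15.6 and 15.8 in controls. The log2 ratio was then 0.65 and -0.020 (mean 0.31), and the 2 pairs did not share a direction.

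**Figure D2:**
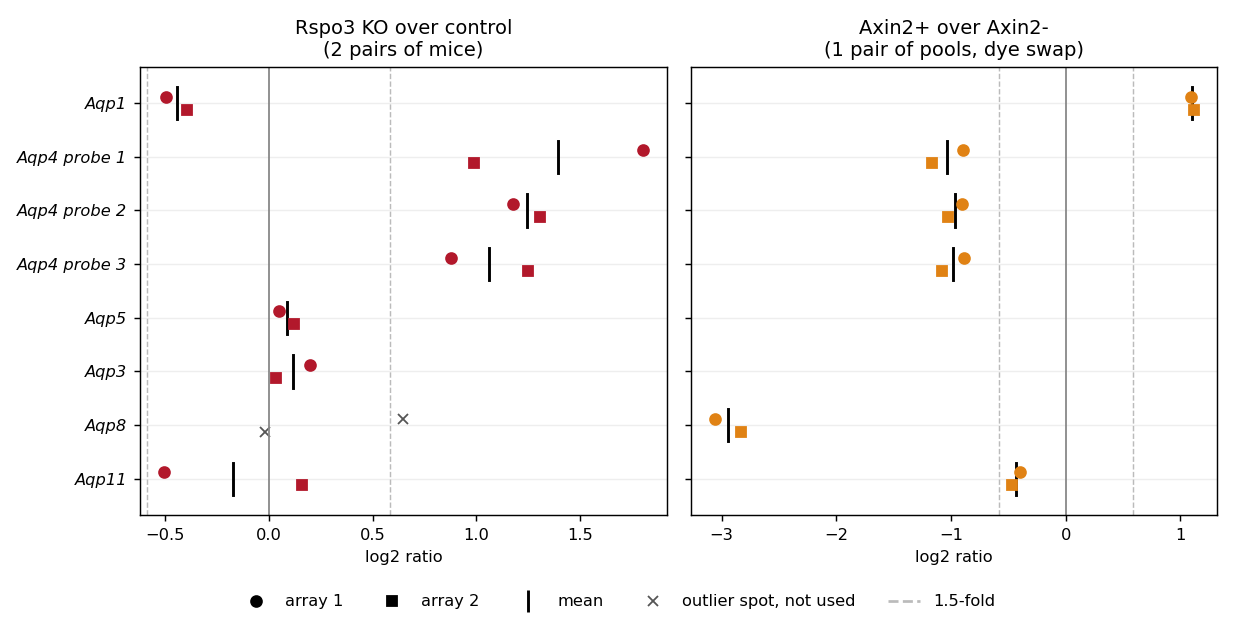
Log2 ratios of the aquaporins with a probe well above background, KO over control on the left and Axin2+ over Axin2- on the right, with circles for array 1, squares for array 2, a bar for their mean, dashed lines at 1.5-fold, crosses for the *Aqp8* spot marked as an outlier, and scales that differ between the panels. The 3 *Aqp4* probes lie between 0.88 and 1.80 on the left and between -1.17 and -0.88 on the right, and *Aqp1* and *Aqp4* lie on opposite sides of 0 in both panels.

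*Aqp11*, an unorthodox aquaporin located mainly inside the cell, differed little. Its log2 level was 10.3 and 10.3 in the KO, 10.9 and 10.1 in controls, 10.7 and 10.6 in Axin2+ cells and 11.1 and 11.1 in Axin2- cells. The log2 ratio of KO over control was -0.51 and 0.16 (mean -0.17, SD 0.469, n = 2 pairs), opposite in the 2 pairs and smaller than its SD. Between the sorted pools it was -0.40 and -0.47 (mean -0.43), lower in Axin2+ cells on both arrays and short of 1.5-fold.

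*Aqp3*, an aquaglyceroporin of basolateral membranes, and *Aqp5*, a water channel of glands, were dim in whole colon. The *Aqp3* probe maps to chromosome 4 of mm9, from 41039962 to 41040021 (minus strand) and that of *Aqp5* on chromosome 15 from 99425131 to 99425189 (plus strand). The log2 level of *Aqp3* was 7.11 and 6.47 in the KO and 6.91 and 6.44 in controls, with log2 ratios of 0.20 and 0.034. Those of *Aqp5* were 7.59 and 6.55 in the KO and 7.54 and 6.43 in controls, with ratios of 0.050 and 0.12. In both genes the arrays differed more from each other than the KO from its control. With the extraction software's own ratios these genes stood at 0.47 and -0.47 (*Aqp3*) and 0.0038 and 0.76 (*Aqp5*), so that no size is given for either.

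The array also carries *Mip*, *Aqp2*, *Aqp6* and *Aqp12*, each with 1 probe. *Mip* and *Aqp6* were not well above background in any channel. *Aqp2*, the vasopressin-regulated channel of the kidney, was well above background in 7 of 8 channels, with log2 ratios of 0.20 and -0.064 in the KO and of 0.078 and -0.0026 in the sorted cells. *Aqp12* was measured in the sorted cells only, at -0.32 and -0.30, and at -1.18 and -2.16 with the software's own ratios, so that no size is given for it.

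By the rule of 1.5-fold in the mean and the same direction on both arrays, 1 of the 5 aquaporins measured was higher in the KO (*Aqp4*), where 1.85% of 15373 genes were called higher, and 0 were lower, where 2.47% were. Of the 4 aquaporins measured in sorted cells, 1 was higher in Axin2+ cells (*Aqp1*), where 7.87% of 15880 genes were, and 2 were lower (*Aqp4* and *Aqp8*), where 6.92% were. The genes were chosen with these ratios known, and nothing is read from the counts. The median log2 ratio of the measured aquaporins was 0.086 in the KO, against -0.012 over all genes, and -0.73 in the sorted cells, against -0.0049.

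The direction of *Aqp4* was set beside a list of 20 crypt genes, of which 18 were measured. This list, like every other list here, was chosen with earlier results of these data known, so that its counts are a description. In the KO, 7 of the 18 were lower past 1.5-fold in the mean with the same direction in both pairs, and 0 were higher. Of all genes, 2.47% were lower and 1.85% higher by this rule, which does not ask for 1.5-fold in each pair. The list's median was -0.36 for the first pair and -0.66 for the second. At 0.05, limma's adjusted p called 0 of the 18 (8 at an unadjusted p under 0.05, up to 3 called under the alternatives), where 0.13% of all genes were called higher and 0.111% lower. From the second pair by itself 11 of the 18 were lower past 1.5-fold, and from the first pair 6. The 2.47% above is for both pairs, and by 1 array up to 2404 of 15373 genes passed in either direction. *Smoc2*, which encodes a matrix protein of crypt base cells, had ratios of -1.71 and -1.06. *Lgr5*, the stem cell receptor for R-spondins, was well above background in both control channels and in neither KO channel. In Axin2+ cells, 11 of the 18 were higher (7.87% of all genes), among them *Cdk6* at 1.90 and 1.85 and *Lgr5* with a mean of 1.53. Only 1 was lower (6.92% of all genes), the RNA-binding protein gene *Msi1* at -0.89 and -0.89. The list's median was 1.05 and 0.89 on the 2 arrays.

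Both comparisons measured 13623 genes, among them *Aqp1*, *Aqp4* and *Aqp11*. Higher in the KO and lower in Axin2+ cells past 1.5-fold, as *Aqp4* was, were 59 genes (0.433%), and 0 of the 18 crypt genes. The reverse, lower in the KO and higher in Axin2+ cells, held for 80 genes (0.587%) and for 5 of the 18. *Aqp1* was not in this second class, since its KO ratio was short of 1.5-fold. *Aqp4* was chosen for going opposite to crypt genes and the list with earlier results known, so that nothing is read from these counts.

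**Figure D3:**
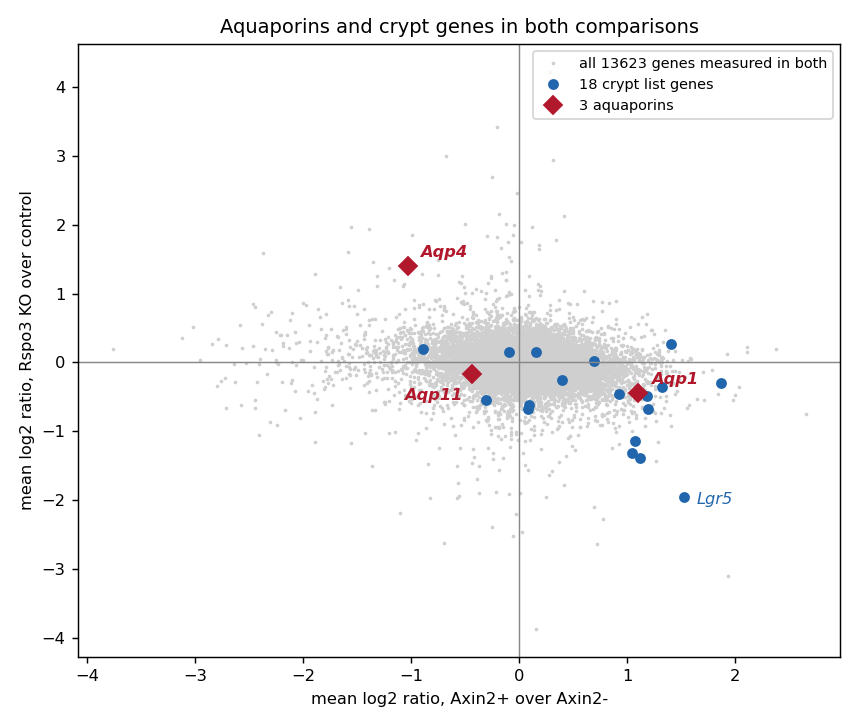
Mean log2 ratio of KO over control against that of Axin2+ over Axin2- cells for the 13623 genes measured in both (grey), with the 18 measured crypt genes in blue and 3 aquaporins in red. *Aqp4*, at 1.40 and -1.03, lies in the upper left, away from crypt genes such as *Lgr5* in the lower right, and *Aqp1* lies at -0.45 and 1.10. The *Lgr5* ratio in the KO rests on KO channels that were not well above background.

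The genes nearest to *Aqp4* by distance over the 4 log2 ratios, among 13622 others, were *H2-Q1* (distance 0.35), *Ccdc71l* (0.48), *Hba-a1* (0.60), *Hba-a2* (0.61) and *Cox7c* (0.73). *Hba-a1* and *Hba-a2* encode the alpha chain of haemoglobin from near-identical genes, whose signals these probes may share. The genes nearest to *Aqp8* were taken with outlier spots kept and were *Saa3* (0.23), *Tmigd1* (0.33), *Tmem140* (0.33), *Saa2* (0.38) and *Saa1* (0.40). The 3 *Saa* genes encode serum amyloid A proteins, are close relatives, and may also share signal.

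Water follows ions in the colon, and 25 genes of ion and water transport other than aquaporins were listed. In Axin2+ cells, 4 of the 24 measured were higher past 1.5-fold (7.87% of all genes) and 11 were lower (6.92% of all genes). Their median log2 ratio was -0.52 and -0.41. With median centring in place of loess, 0 were higher alike on both arrays and 10 were lower. Over all genes, 1090 then passed in either direction, against 2348 with loess. On the side of *Aqp1* were *Kcnq1*, a potassium channel that drives chloride secretion (1.04 and 1.31), and *Cftr*, the chloride channel of secretion (1.02 and 1.07). Other anion channels went with *Aqp8*, the calcium-activated chloride channel *Ano1* at -1.53 and -1.61 and *Best2*, an anion channel of goblet cells, with a mean of -1.42. Lowest on that side were the absorptive exchangers *Slc26a3*, for chloride and bicarbonate (-2.75 and -2.50), and *Slc9a3*, for sodium and protons (-2.37 and -2.38).

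In whole colon, 22 genes of this list were measured. Past 1.5-fold alike, 1 was higher (1.85% of all genes) and 4 were lower (2.47% of all genes), and limma's adjusted p called 0 (5 at an unadjusted p under 0.05). *Slc9a3* was the one that was higher, at 1.35 and 1.83, so that it shared both directions with *Aqp4*. The lowest were *Best2* (-1.19 and -0.86) and *Kcnq1* (-1.26 and -0.58). Over the list, the median stood at 0.23 for the first pair and at -0.19 for the second.

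**Figure D4:**
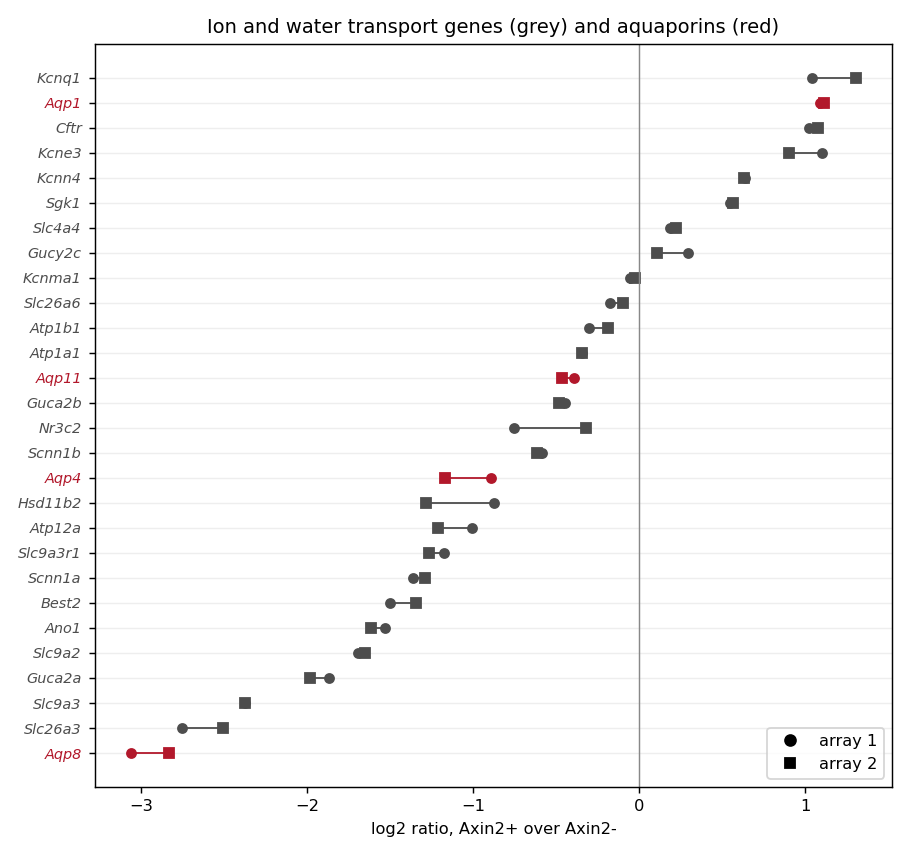
Log2 ratios of Axin2+ over Axin2- cells for 24 ion and water transport genes (grey) and the 4 measured aquaporins (red), sorted by the mean, with circles for array 1 and squares for array 2 of the dye swap. *Aqp1* stands between *Kcnq1* and *Cftr* at the upper end, and *Aqp8* at the lower end next to *Slc26a3*.

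Markers of surface enterocytes accompanied *Aqp8*. In Axin2+ cells, 10 of the 11 measured were lower past 1.5-fold (6.92% of all genes) and 0 were higher (7.87% of all genes). Their median was -2.45 and -2.44, and *Krt20*, a keratin of surface cells, stood at -3.01 and -2.77. The lowest were *Car4*, a carbonic anhydrase, at -3.06 and -3.18, and *Tmigd1* at -3.12 and -2.93. In the KO, 8 markers were measured and none passed 1.5-fold alike, and their median was 0.51 for the first pair and -0.31 for the second. With outlier spots kept, 11 were measured and 2 were higher, and no share of all genes is given for this setting. Of 7 goblet cell markers, 5 were lower in Axin2+ cells, where 6.92% of all genes were.

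Genes of glycerol handling were listed beside the aquaglyceroporins. None of the 12 measured passed 1.5-fold alike in the KO, and limma's adjusted p called 0 (1 at an unadjusted p under 0.05). With the software's ratios, by which more of all genes passed as well, 2 were higher and 1 was lower. In Axin2+ cells 3 of 12 were lower (6.92% of all genes) and 0 were higher (7.87% of all genes). The lowest was *Mgll*, which encodes monoacylglycerol lipase (-2.47 and -2.35).

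*Aqp4*, *Aqp7* and *Aqp9* are also known from other cell types, whose markers were read in whole colon. The 6 markers of enteric glia were all well above background in KO and control and none passed 1.5-fold alike. The 7 smooth muscle markers were also all above background, and none of the 6 measured passed. Markers of mesothelium, the outer lining of the gut, were mostly higher in the KO in the first pair. That pair had the larger *Aqp4* ratio with the brightest probe only, and the smaller one with the other probes. *Msln* stood at 1.59 and 0.45 and *Upk3b* at 1.52 and 0.33. These 2 of the 4 genes were higher past 1.5-fold in the mean, with the same direction in both pairs, as were 1.85% of all genes. Neither reached 1.5-fold in the second pair, and limma's adjusted p called none (2 at an unadjusted p under 0.05). The median of the list was 1.43 and 0.24, while *Krt5* stood at -1.60 and 0.15. Of 3 measured adipocyte markers 1 was higher (1.85% of all genes), and the median was 1.35 and -0.11. Of 4 measured skeletal muscle markers 1 was lower (2.47% of all genes). The part of these markers in the *Aqp4* ratio was not tested. Among sorted cells, *Msln* was well above background in no channel and *Gfap* and *Sox10*, markers of glia, in none either, while *Aqp4* was so in all 4. On both arrays, 1 of 4 mesothelial markers was above background in each pool, and 3 of 6 glial markers were so in Axin2+ and 2 of 6 in Axin2- cells.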

How the data were processed

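Expression was measured in 4 hybridisations: *Rspo3* KO against control colon (2 pairs of mice, dyes reversed) and Axin2+ against Axin2- pools (1 replicate, dye swap). Samples were grouped by the labels. For the KO mice, distal colon and TRIzol stand in the labels, colon and a spin column kit in the study's methods. The authors labelled RNA from an oligo-dT primer, scanned the arrays and extracted them with Agilent's software. They deposited, per spot and dye, the intensity of signal and of background and flags, and per spot a log10 ratio (Cy5 over Cy3) with the error score that the authors' software gave to it. The series table holds the same log10 ratio. The deposited per-spot p-values, a within-array error model, were not used.

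With limma (version 3.58.1, R version 4.3.3), the background was corrected by normexp with an offset of 50, with spots that were background outliers (66 and 6 on the KO arrays) kept out of the fit. Ratios were normalised by loess within arrays, and levels then by Aquantile over the 4 arrays. Control and outlier spots were left out (510, 443, 131 and 124 gene spots on the 4 arrays). For each gene the brightest probe was taken, and the gene was measured where both arrays had this probe well above background in 1 channel or more. RefSeq's table (assembly GRCm38.p6) named 33728 of 41174 probes, and the rest kept the name in the array files.

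KO ratios were fitted with limma (lmFit, eBayes) against 0 over 15373 genes with Benjamini-Hochberg adjustment. With 1 residual degree of freedom and 6.76 prior ones, 37 genes passed 0.05 and 715 had an unadjusted p under 0.05. In 3 simulations of this comparison with 15373 genes, 99.5% to 100% of 200 genes changed by 2 to 3 on the log2 scale were recovered. These sizes lie above the KO ratio of *Aqp4* (mean 1.40). Recovery of smaller changes was not simulated, so that the simulations do not tell whether a gene not called was unchanged. The Axin2 arrays allow no test. Genes were named from the aquaporins, the 2 highest and 2 lowest of each list in each comparison (not all of which are printed), *Lgr5*, *Axin2*, *Krt20*, *Rspo3* and the 5 genes nearest to *Aqp4* and *Aqp8*. *Ano1* and the endothelial, glial, epithelial and mesothelial markers named beyond this were chosen after their values were seen. The members and lists were chosen with earlier results of these data known. The alternatives were other background corrections, median centring, the software's ratios, the series table, other filters, the mean over probes, error weights, each array left out and, added later, outlier spots kept.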

Additional observations from a re-analysis of the deposited data

How the results depend on the processing

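Of 113 values of measured aquaporins under the alternatives, 112 kept their direction. The exception was *Aqp11* in the KO, at 0.16 without replicate 1 and -0.51 without replicate 2. This count is no measure of stability, since some alternatives could not change a value. The mean over probes leaves a gene with 1 probe as it was, and the series table repeats the software's ratios. *Aqp3* in the KO counted as kept with the software's ratios, at a mean of 7.8e-05 from 0.47 and -0.47. The KO ratio of *Aqp4* lay between 0.99 and 1.80 and that of *Aqp1* between -0.50 and -0.39, each array left out included. In the sorted cells, *Aqp1* moved from 1.10 to 0.73 with median centring, 1.08 with an offset of 16 and 1.03 with the software's ratios or the series table. Median centring gave -1.24 for *Aqp4* and -3.18 for *Aqp8*. With median centring, both arrays of the sorted cells disagreed in direction for *Aqp1*, *Aqp4* and *Aqp11*, and *Aqp8* was the only aquaporin past 1.5-fold alike.

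The number of KO genes past limma's threshold (37) was 0 without a filter on dim probes and with error weights, 1 with background fitted to all spots, 5 with the mean over probes, 8 with median centring, 70 without background correction, 127 with an offset of 16 and 130 with the software's ratios or the series table. KO genes past 1.5-fold (665) numbered 361 with background fitted to all spots, 1476 with the software's ratios or the series table, and 1555 to 2404 by 1 array. Those of the sorted cells (2348) numbered 1090 with median centring and 5183 with the software's ratios or the series table. The causes were not tested. The KO median of the transport list (-0.00083) was 0.028 with median centring, 0.0059 with an offset of 16 and -0.19 to 0.23 by 1 array, and that of surface enterocytes (0.080) was -0.31 to 0.51 by 1 array. Crypt genes lower in the KO numbered 5 to 8 (6 without replicate 2 and 11 without replicate 1), and those higher in Axin2+ cells 4 to 12, over the alternatives with both arrays, with 4 under median centring. The KO fit is itself within pairs, since each array's ratio compares 1 pair of mice, so that there is no further replicate block to add. With 2 pairs of mice and 1 pair of pools, a level is known only for probes above background, and the precision cannot be raised by depth.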
